A study of Mus musculus with 8 samples.

Results

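The Mef2c window is the stretch of mouse chromosome 13 from 83300000 to 85000000 (mm9), 1.7 Mb that hold the gene Mef2c and the interval after it. Its members were all peaks with a centre between these positions, 53 of the 26317 peaks in 8 deposited peak lists. The lists came from chromatin immunoprecipitation followed by sequencing (ChIP-seq) for the transcription factor OTX2 in the embryonic mouse ventral forebrain. The window was chosen from measured values, because the 1 Mb bin from 84 to 85 Mb was among the 4 bins with the most OTX2 regions. Numbers, ranks, widths and overlaps of peaks inside it are therefore given as a description, with no test. All groups were wild-type CD-1 embryos at stage E12.5, and each library was made from the basal ganglia (medial and lateral ganglionic eminences) and septum pooled from several embryos. The 3 OTX2 libraries were precipitated with an anti-OTX2 antibody, the 3 input libraries were chromatin with no antibody, and the 2 IgG libraries, present in the first and second experiments, were precipitated with normal goat IgG. The dissection mixes progenitors and neurons of several domains, so a peak cannot be placed in a cell type. Whether each experiment drew on its own litters was not stated.

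Mef2c encodes a MADS-box transcription factor of muscle, vasculature and brain, and in the forebrain it acts in neuronal differentiation, including that of interneurons born in the medial ganglionic eminence. OTX2 is a homeodomain factor of the anterior neural tube that binds DNA with a TAATC core and that patterns the forebrain and midbrain. ChIP-seq peaks mark where fragments carrying the factor piled up, in genes or far from them, and do not show which gene, if any, a site acts on. In the order of genes on chromosome 13 in the RefSeq table of GRCm38, Cetn3, which encodes a centrin, is the nearest protein-coding gene before Mef2c and Tmem161b, which encodes a membrane protein, is the nearest after it. Between Mef2c and Tmem161b that table lists 14 genes, none of them protein-coding. They include C130071C03Rik, a long non-coding RNA gene, and Mir9-2, one of the genes of the neural microRNA miR-9. Tmem161b is followed by Ccnh, which encodes cyclin H, and Rasa1, which encodes a Ras GTPase-activating protein, with no other protein-coding gene between Tmem161b and Ccnh. The peaks are in mm9 and the table is in GRCm38, so these are names and order only, and no peak was assigned to any of these genes. Which of them, Tmem161b included, lie inside the window was not determined. Distances past the end of Mef2c therefore do not mean that Mef2c is the nearest gene. The position of Mef2c itself was taken as stated in the definition of the window, near 83.64 to 83.80 Mb of chromosome 13 in mm9, which is exact to about 10 kb.

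No list held a peak within 10 kb of the stated start of Mef2c. The nearest, of replicate 3 at chr13:83657197-83658050 (rank 15496), lay 17.2 kb inside the gene. The stated start is a single position, while the starts shown here lie apart along the gene. How near that peak lies to the later starts was not tested. The sequences before the starts are shown to give the letters at the promoters of the gene the window is named for. RefSeq (GRCm38.p6) gave 3 starts for Mef2c, all on the plus strand of chromosome 13. The 250 bases before each are printed 5′ to 3′, with capitals for the hexamers TAATCC and TAATCT and for TAATTA, each on either strand. These positions are in GRCm38 and cannot be set beside the mm9 positions of the peaks.
Mef2c start 1, chr13:83503784-83504033: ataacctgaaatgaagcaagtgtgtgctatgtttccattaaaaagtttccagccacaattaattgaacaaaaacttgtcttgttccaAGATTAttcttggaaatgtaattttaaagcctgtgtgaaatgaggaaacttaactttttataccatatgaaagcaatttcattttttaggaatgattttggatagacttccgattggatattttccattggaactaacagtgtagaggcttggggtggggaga
Mef2c start 2, chr13:83523406-83523655: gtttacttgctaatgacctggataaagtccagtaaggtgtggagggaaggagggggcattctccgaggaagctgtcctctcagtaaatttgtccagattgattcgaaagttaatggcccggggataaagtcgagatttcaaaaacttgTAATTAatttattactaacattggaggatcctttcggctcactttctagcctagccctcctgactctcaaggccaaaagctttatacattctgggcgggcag
Mef2c start 3, chr13:83573357-83573606: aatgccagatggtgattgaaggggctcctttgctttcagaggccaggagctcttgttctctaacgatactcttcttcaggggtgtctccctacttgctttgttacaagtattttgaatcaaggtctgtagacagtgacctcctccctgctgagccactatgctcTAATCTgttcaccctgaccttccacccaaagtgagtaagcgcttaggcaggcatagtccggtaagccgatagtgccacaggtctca

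TAATCC, the hexamer most typical of OTX2, was in none of the 3 stretches, beside 6.25% of all 32851 stretches of the same length in the RefSeq promoter table. TAATCT was in 2 of the 3, beside 7.31% of all. At start 1 it lay 163 to 158 bases before the start on the minus strand, so that the printed strand reads AGATTA, and at start 3 it lay 86 to 81 bases before the start on the printed strand. TAATTA, a hexamer shared by many homeodomain factors, was in 1 of the 3, at start 2, 102 to 97 bases before the start, beside 4.84% of all. The stretches at starts 1, 2 and 3 held 33.6, 44.8 and 49.6% G or C. The shares over all stretches were not matched for this, so nothing is read from the differences. Only these letters were searched, and a match is not a measured site. No sequence is printed for the peaks because no mm9 genome was used here.

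Facts of the whole lists bear on every value in the window. The OTX2 lists held 1848, 1298 and 22325 peaks in replicates 1, 2 and 3, and the 5 control lists (input and IgG) held 138 to 235. Each list was an order of peaks, written as a rank from 1 for the best, with no height, fold enrichment, p-value or read total, so depth is unknown, and the sources used here do not give what set the rank. A rank percentile is the rank divided by the length of its own list, in percent, so that low values are better. Peaks of replicate 3 were wider, with a median of 827 bp beside 191 and 182 bp in replicates 1 and 2, and both lists of its experiment were named differently from the others. Whether its peaks were called with the same settings was not tested. An OTX2 region is a group of overlapping peaks (at least 1 bp) from at least 2 of the 3 OTX2 libraries that meets no input or IgG peak, and the genome held 1949 of them.

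OTX2 replicate 1 had 11 peaks in the window, replicate 2 had 8 and replicate 3 had 33. Input replicate 1 had 1 peak there, and input replicates 2 and 3 and both IgG libraries had none. A list holds only the peaks that were called, so an absence is not a measurement of no signal. Per Mb, replicate 1 had 6.47 peaks in the window and 0.700 over the genome, a ratio of 9.24. Replicate 2 had 4.71 and 0.492, a ratio of 9.57. In replicate 3 the density was 19.4 in the window and 8.46 over the genome, a ratio of 2.29. The density was above that of the genome in each of the 3 OTX2 libraries, and the ratio was lowest in the long list. The window was chosen for a bin dense in regions built from these same peaks, so nothing is read from these ratios. Input and IgG peaks pooled had 0.588 per Mb in the window (1 peak) and 0.319 over the genome, a ratio of 1.85. The 52 OTX2 peaks merged into 35 intervals, of which 10 were OTX2 regions (28.6%, 95% exact Clopper-Pearson interval 14.6 to 46.3%), beside 8.61% of all 22629 merged intervals. The window was chosen for such regions, so nothing is read from this difference. Intervals of this kind cover counting error only.

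The map of peaks along the window shows where they lay relative to Mef2c.

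**Figure D1:**
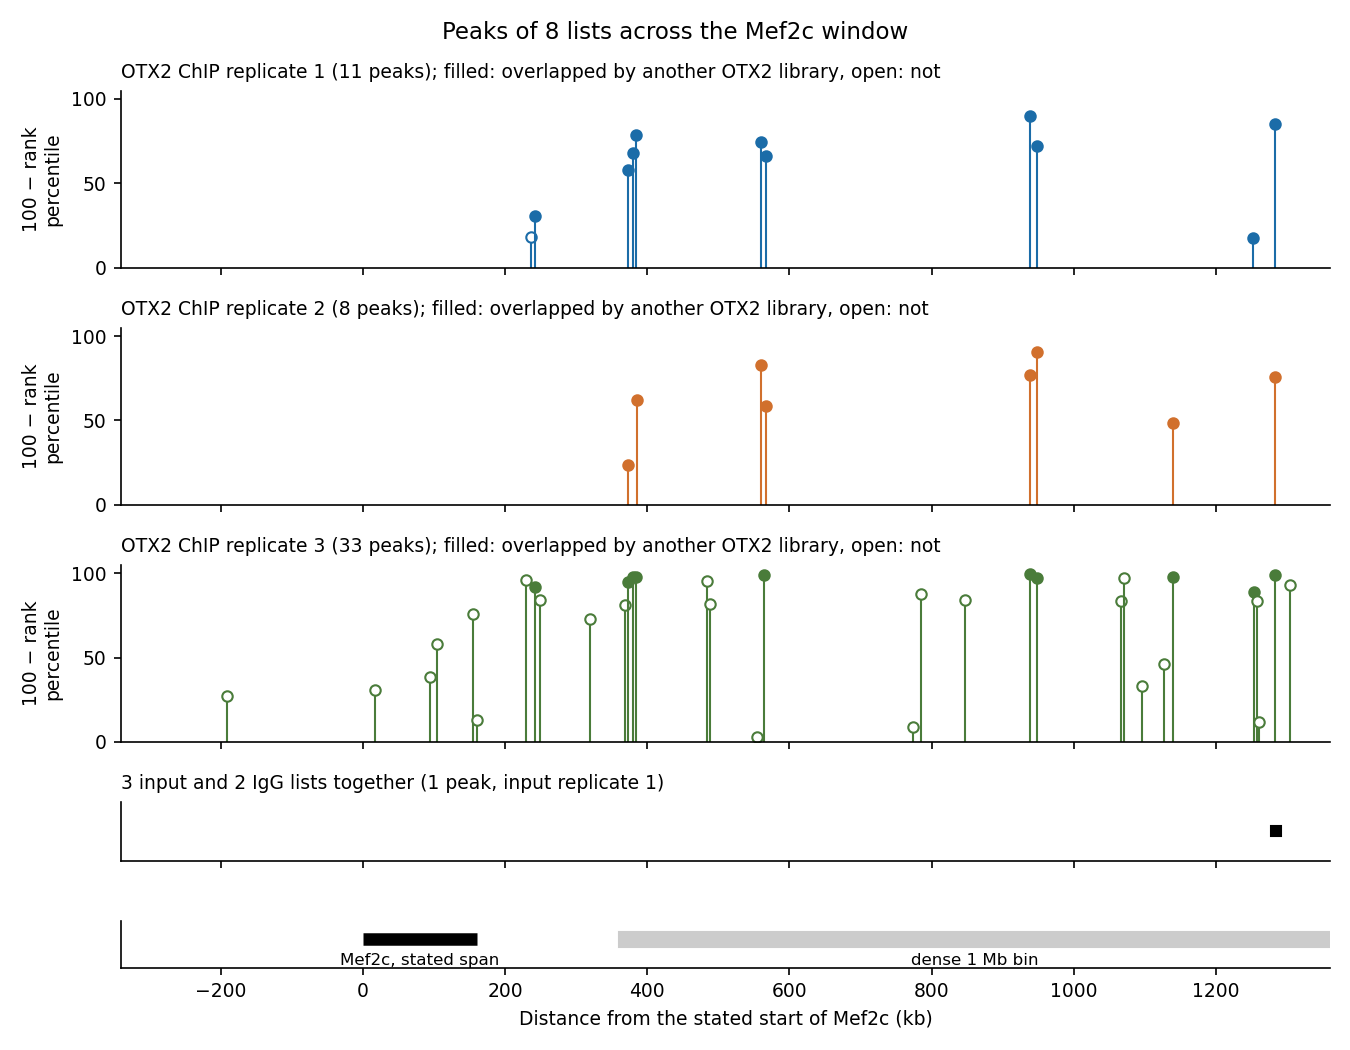
Peaks of the 8 lists by distance from the stated start of Mef2c (kb), with height 100 minus the rank percentile in the 3 OTX2 panels, filled points for peaks overlapped by another OTX2 library and open points for the others. The fourth panel marks the 1 control peak, and the bars below mark the stated span of Mef2c and the 84 to 85 Mb bin. Within the gene only replicate 3 had peaks, 4 of them and all open, and peaks of replicates 1 and 2 began 75.8 and 212 kb past its end.

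Mef2c itself carried no OTX2 region. In the stated span of the gene replicates 1 and 2 had no peak, and replicate 3 had 4, each in that library alone. They lay at chr13:83657197-83658050 (rank 15496), chr13:83734638-83735285 (rank 13685), chr13:83742871-83744480 (rank 9425) and chr13:83794359-83795378 (rank 5444). Their rank percentiles were 69.4, 61.3, 42.2 and 24.4, so 2 of the 4 were in the worse-ranked part of the list. The peak nearest to the stated start of the gene lay 17.2 kb inside it. A further peak of replicate 3, at rank 19434, began 0.257 kb past the stated end, less than the precision of that end. The 0.34 Mb of the window before the gene held 1 peak, of replicate 3 at rank 16278. The nearest peak to the stated start was 236 kb away in replicate 1 and 372 kb away in replicate 2. By these lists the replicated sites were not in the gene the window is named for but beyond its 3′ end. The stated span is short, however, at 0.16 Mb, and the genome held 0.739 OTX2 regions per Mb. Of the 2651 bins of 1 Mb, 1565 held no region. Peaks of replicates 1 and 2 numbered 0.7 and 0.492 per Mb over the genome. Only 8.83% of all replicate 3 peaks were overlapped by replicate 1 or 2. An absence of regions and peaks of replicate 3 alone are thus usual, so nothing about the gene is read from either.

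Between the end of Mef2c and 84 Mb 1 site was seen in more than 1 library. This OTX2 region at chr13:83877504-83885993 began 77.5 kb past the stated end of the gene. It joined a replicate 3 peak of 8490 bp (rank 1894) with a replicate 1 peak of 155 bp (rank 1286) that lay 192 bp from its centre. Replicate 2 had no peak there. Only 10 of the 22325 peaks of replicate 3 were as wide or wider. A second narrow peak of replicate 1 (chr13:83875847-83875982, rank 1508) lay 1521 bp before the wide peak and met no other library. A peak of replicate 3 alone at chr13:83868292-83869854 ranked 896, better than the region beside it, and a further one at chr13:83887971-83890613 ranked 3544. Both replicate 1 peaks of this stretch were in the worse-ranked part of its list, at percentiles 69.6 and 81.6. In the gene order, C130071C03Rik and Mir9-2 follow Mef2c on this side, but whether these peaks lie in or near them was not tested.

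The bin from 84 to 85 Mb held the other 9 regions, with 9 peaks of replicate 1, 8 of replicate 2 and 23 of replicate 3. Every replicate 2 peak of the window was in this bin. The 1 Mb bin before it held 2 regions and the bin after it held 1, beside a mean of 0.735 over 2651 bins. Only 4 bins held 9 or more regions, 2 of them with more than this one, and 5 bins stood just below with 8. The bin had 6 regions without replicate 1 and 7 without replicate 2. Without replicate 3 it also had 7, 6 of them among the 9 and the other an interval that in the full set met an input peak.

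**Figure D2:**
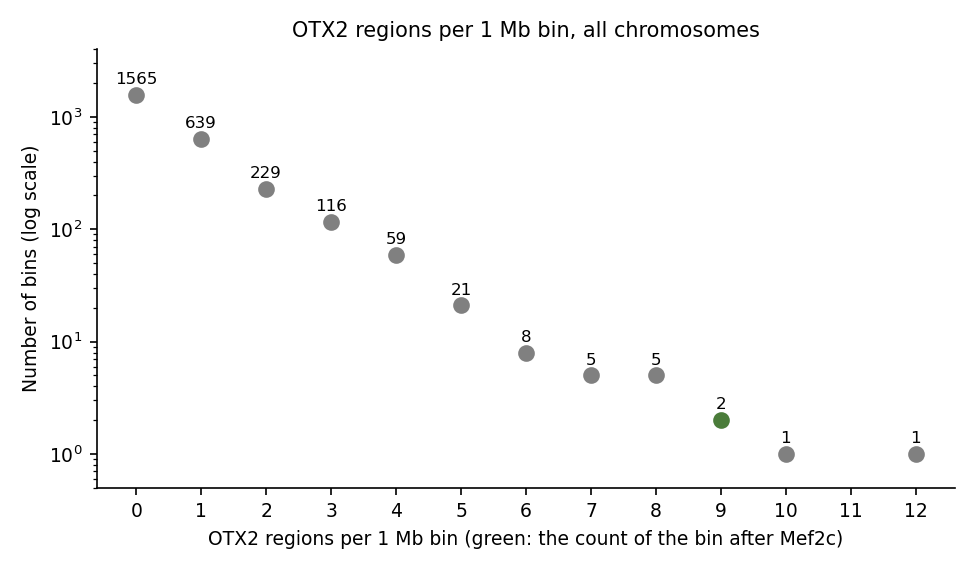
Number of 1 Mb bins (log scale) that hold each number of OTX2 regions, over all chromosomes, with the count printed above each point. The green point marks the 9 regions of the bin after Mef2c, a count that 2 bins share and 2 bins exceed, while 1565 bins hold none.

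A neighbouring region was centred no more than 50 kb away for 7 of the 10 in the window (70.0%, 34.8 to 93.3%), beside 24.8% of all regions. Neighbours count each other, so these outcomes are not independent and the interval is nominal only. The window was chosen for a dense bin, so nothing is read from this difference. The 7 formed 3 groups set apart by long gaps, and the other 3 regions stood alone. The first group was 3 regions in 15.1 kb, with gaps of 5.38 and 1.92 kb between them. A gap of 173 kb separated it from the second, a pair of regions in 8.23 kb. The third, a pair in 12.9 kb, followed after 369 kb, the longest gap between neighbouring regions of the window. The same 7 regions had a neighbour at distances of 20 and 100 kb.

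In the first group, 211 to 226 kb past the stated end of Mef2c, the region with the best ranks was the last one, chr13:84023035-84026189, ranked 400, 490 and 507 in replicates 1, 2 and 3. Its replicate 1 peak was 600 bp wide, the widest of that library in the window, and contained the whole replicate 2 peak of 124 bp. The region at chr13:84011115-84013702 was ranked 776, 989 and 1144. Between them, chr13:84019078-84021118 ranked 590 and 544 in replicates 1 and 3 and had no replicate 2 peak. Replicate 3 had a further peak just before the group, at chr13:84008096-84009161 with rank 4233. Replicate 1 thus found all 3 sites, while replicate 2 found the outer ones.

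The second group, 399 to 407 kb past the gene, held a region without replicate 3 beside one with it. The region chr13:84199174-84199812 was made of replicates 1 and 2 alone (ranks 473 and 219), which was so for 5 of the 1949 regions (0.257%). These 2 peaks overlapped by 271 bp and stood well in their lists, at percentiles 25.6 and 16.9. Replicate 3 had no peak over them, although its 6325 bp peak at rank 239 began 1267 bp further on. That wide peak and a second pair of narrow peaks formed the next region, chr13:84201080-84207404, ranked 625, 541 and 239. The narrow peaks of this pair had centres 14 bp apart and lay 2102 and 2088 bp from the centre of the wide peak, toward its far end. Peaks of replicates 1 and 2 thus stood on either side of the middle of the wide peak, one pair within it and one pair outside it.

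The third group held the best ranks of the window in each OTX2 library. At chr13:84576878-84578824 the ranks were 186, 297 and 102 in replicates 1, 2 and 3, the best of the window in replicates 1 and 3. At chr13:84587208-84589752 they were 520, 121 and 624, the best of the window in replicate 2. The narrow peaks of the first site overlapped by 275 bp, with centres 77 bp apart. Those of the second overlapped by 34 bp with centres 226 bp apart, the loosest match between replicates 1 and 2 in the window. The order of this pair thus differed between the libraries, replicates 1 and 3 ranking the first site better and replicate 2 the second.

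Farther along, 2 regions rested on replicate 3 and 1 other library. The region chr13:84777873-84779885 was ranked 672 in replicate 2 and 561 in replicate 3 and had no peak in replicate 1. The region chr13:84889807-84896171 was ranked 1526 in replicate 1 and 2558 in replicate 3 and had no peak in replicate 2. It held the lowest-ranked replicate 1 peak of the window (percentile 82.6). Its wide peak measured 6365 bp. Regions with a peak in replicates 1 and 3 alone numbered 3 of the 10 in the window, beside 794 of all 1949 regions. Of replicates 2 and 3 alone there was 1 of the 10, beside 361 of all 1949. All 3 libraries held 5 of the 10 regions (50%, 18.7 to 81.3%), beside 40.5% of all regions.

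**Figure D3:**
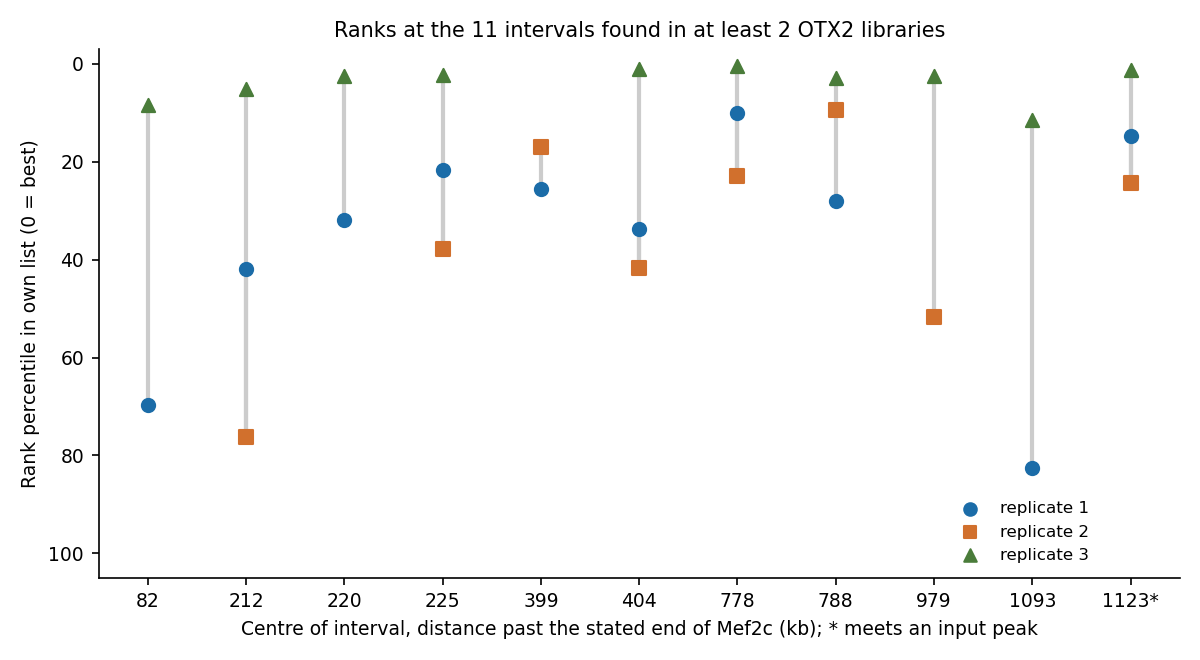
Rank percentile (0 is best, axis reversed) in each OTX2 library at the 11 intervals of the window found in at least 2 libraries, placed by the distance of their centre past the stated end of Mef2c (kb). Replicate 3 lies at 11.5% or better at each of its 10 intervals, while replicates 1 and 2 spread from 9.32% to 82.6%. The replicate 3 list is longer (22325 peaks beside 1848 and 1298). Over all regions its median was 4.98%, beside 46.3% and 47.5% in replicates 1 and 2. The asterisk marks the interval that meets an input peak.

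An eleventh interval was found in all 3 OTX2 libraries but met a control peak. At chr13:84922366-84924078 the ranks were 272, 315 and 288, and its replicate 1 rank was better than at 4 of the 5 regions that all 3 libraries shared. The input replicate 1 peak at chr13:84923699-84923848 (150 bp, rank 66 of 138) lay inside the replicate 3 peak of 1713 bp. It did not touch the narrow peaks, being 110 bp from that of replicate 1 and 109 bp from that of replicate 2. Of the 11 intervals of at least 2 libraries in the window this was the 1 that met a control peak, beside 2.01% of all such intervals. No replicate 1 or replicate 2 peak of the window overlapped a control peak, beside 3.41% and 4.85% of their lists, and 1 of 33 replicate 3 peaks did, beside 0.206%. Without replicate 3 the interval counted as a region. The part of background in the OTX2 signal there was not tested.

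**Figure D4:**
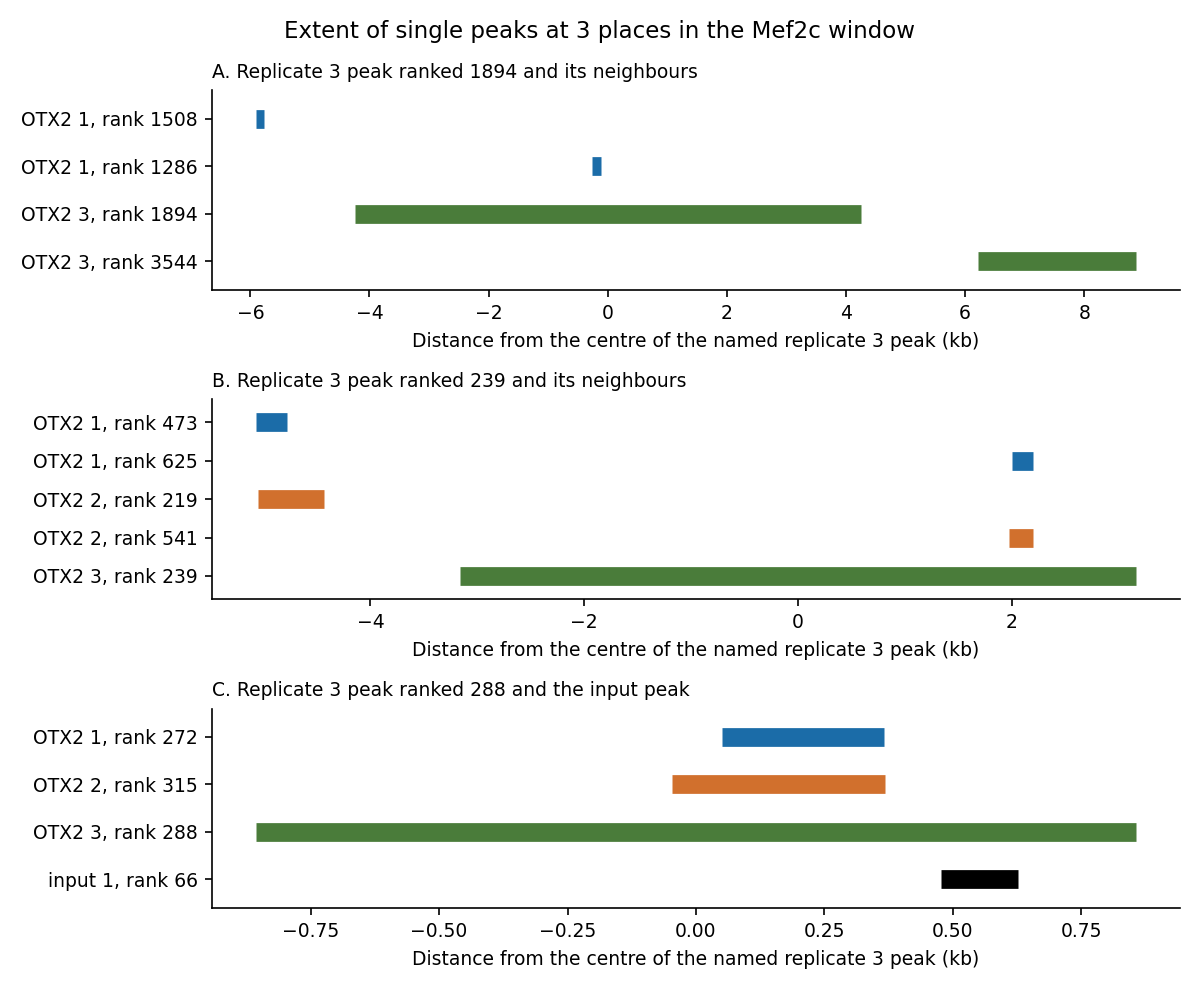
Extent of each peak (bars, one row a peak, labelled with library and rank) at 3 places, by distance from the centre of the named replicate 3 peak (kb). Panel A shows the 8490 bp peak with 1 replicate 1 peak inside and 1 outside, panel B the pair of narrow peaks before the 6325 bp peak and the pair inside it, and panel C the input peak inside the 1713 bp peak and apart from the narrow ones.

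Agreement between libraries was counted over the peaks of the window. Of replicate 1 peaks, 7 of 11 were overlapped by replicate 2 (63.6%, 30.8 to 89.1%), beside 43.0% of its list, and 9 of 11 by replicate 3 (81.8%, 48.2 to 97.7%), beside 87.9%. Of replicate 2 peaks, 7 of 8 were overlapped by replicate 1 (87.5%, 47.3 to 99.7%), beside 61.6%, and also 7 of 8 by replicate 3, beside 92.1%. Of replicate 3 peaks, 10 of 33 were overlapped by replicate 1 or 2 (30.3%, 15.6 to 48.7%), beside 8.83%. With so few peaks these intervals are wide, and the lists are those the window was chosen from. At the 7 places where replicates 1 and 2 overlapped, their centres were 14 to 226 bp apart (median 82 bp). Each of the 16 narrow peaks that met a replicate 3 peak lay entirely inside it, with a median distance of 202 bp between centres.

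Most replicate 3 peaks of the window stood in the better-ranked part of their list. The best-ranked 25% of the list held 22 of the 33, including all 10 that replicate 1 or 2 overlapped, and the next 3 groups of 25% held 2, 5 and 4. Over the whole list 91.9% of the overlapped peaks (1811 of 1971) were in the best-ranked 25%, where 32.4% of peaks were overlapped, beside 2.19%, 0.502% and 0.179% in the next 3 groups. Among its best 1848 peaks, the length of the replicate 1 list, 12 lay in the window, and 8 of these were overlapped by replicate 1 or 2 (66.7%), beside 71.8% of all 1848. The other 4 were single-library peaks, at chr13:84709721-84712607 (rank 686), chr13:83868292-83869854 (rank 896), chr13:84123627-84125400 (rank 1111) and chr13:84943710-84944723 (rank 1522). The next single-library peak ranked 2819, at chr13:84424473-84425911. In all, 24 of the 35 merged intervals of the window were of 1 library, 23 of replicate 3 and 1 of replicate 1. The other 11 were of at least 2 libraries, beside 1989 of all 22629 merged intervals. The window was chosen for such intervals, so nothing is read from this difference.

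Median rank percentiles in the window were 31.9 in replicate 1 (lowest 10.1, highest 82.6, 11 peaks), 31.0 in replicate 2 (9.32 to 76.2, 8 peaks) and 15.9 in replicate 3 (0.457 to 96.8, 33 peaks), where 50 is the middle of a list. In replicate 3 the median was 11.5 in the 84 to 85 Mb bin and 34.6 over the 10 peaks before it. At the regions themselves the medians were 31.9, 37.8 and 2.51 in replicates 1, 2 and 3, beside 46.3, 47.5 and 4.98 over all regions. The best ranks of the window were 186 of 1848, 121 of 1298 and 102 of 22325 in replicates 1, 2 and 3.

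Peaks of the window were wider than their lists in replicate 3. Their median was 1610 bp (interquartile range 854 to 2545 bp) beside 827 bp (669 to 1080 bp) for the list. In replicate 1 it was 209 bp beside 191 bp, and in replicate 2 it was 274 bp beside 182 bp. The 4 widest, of 8490, 6365, 6325 and 5609 bp, were among the 33 widest of the 22325 peaks. None of the 4 met a control peak, while 6 of those 33 did. The 5609 bp peak (chr13:84483809-84489417, rank 3535) was in replicate 3 alone, and each of the other 3 contained peaks of replicate 1 or of both. Replicate 3 peaks covered 4.12% of the window, beside 0.827% of the genome, and those of replicates 1 and 2 covered 0.169% and 0.141%, beside 0.0186% and 0.0123%.

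**Figure D5:**
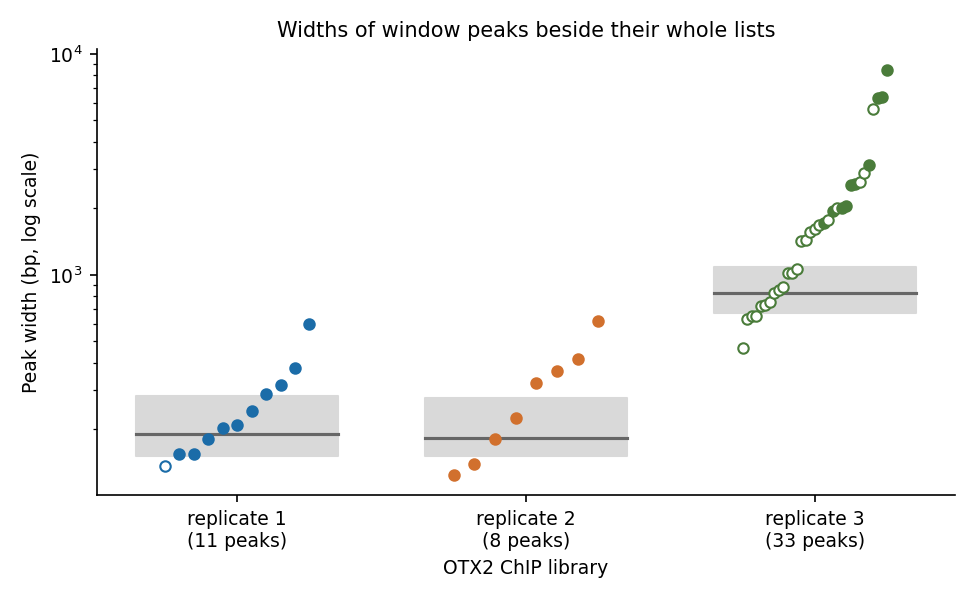
Width in bp (log scale) of each peak of the window in the 3 OTX2 libraries, sorted by width within a library, with filled points for peaks overlapped by another OTX2 library and open points for the others. Grey bands and lines give the interquartile range and median of the whole list, and in replicate 3 the points reach 8490 bp above a list median of 827 bp.

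Regions of the window had a median width of 2566 bp, beside 1372 bp over all regions, which follows the wide peaks of replicate 3. Among the 4 bins with 9 or more regions, the bin after Mef2c had the widest regions, with a median of 2545 bp beside 1984, 1640 and 1624 bp in the others. It had fewer replicate 3 peaks than the bins with 12 and 10 regions (23 beside 42 and 37) and more than the other bin with 9 regions (17). Of its 9 regions 5 were in all 3 libraries, beside 9 of 12, 4 of 10 and 4 of 9. These bins were selected on the number of regions, and their differences were not tested.

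The last region before it lay at chr13:83042475-83043154, 257 kb outside, with ranks of 1022 in replicate 1 and 1727 in replicate 3. The first region after it lay at chr13:85207819-85208980, 208 kb outside, with ranks of 1310 and 2261 in the same libraries. Neither had a replicate 2 peak. The nearest OTX2 peak outside was of replicate 3, 45.6 kb past the end of the window at rank 10316. An input replicate 3 peak lay nearer, 35.6 kb past that end. No region lay across an edge.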

How the data were processed

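For each library the authors deposited a BED file of called peaks, each line holding chromosome, start, end and a rank, so peaks were called per library with no pooling. Per the submitters' processing notes BWA, MACS 1.4 and the build mm9 were used. The sources used here give neither their roles nor the threshold, the control set against each library or the quantity behind the rank. Per the labels' protocols reads were single, of 50 bp. Groups and replicate numbers came from the sample titles. Peak positions were read by the BED convention and are printed 1-based. The window and the span of Mef2c were taken as stated in the definition of the window. Members, sites and gene names were chosen with earlier results of these data known. Sites named were all OTX2 regions of the window, its control peak, the 5 best-ranked peaks of 1 library and the regions next to each edge. The wide peaks, the peaks in the gene and the replicate 1 peak without an overlap were named after their values were seen. Overlaps were computed in Python 3.11.15 with scipy 1.17.1 and tested on simulated data with known answers. Whole-list overlaps between each pair of OTX2 libraries were checked with bedtools 2.31.1, which gave the same counts. The counts of regions and of control overlaps were not part of that check. Chromosome lengths for densities and bins were the last peak end in any list. No p-value was computed. Peaks within a list are not replicates.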

Additional observations from a re-analysis of the deposited data

How the results depend on the processing

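Read depth is unknown and the lists hold no peak heights, so no absence of a peak can be weighed. The count of regions in the window was 10. It became 5 when all 3 libraries were required and 34 when any 1 was enough, and for the 84 to 85 Mb bin 9 became 5 and 23. For the stated span of Mef2c the count of 0 became 4 when any 1 library was enough and stayed 0 under the other alternatives run for it. Leaving out 1 replicate gave 6 to 8 regions in the window (6 without replicate 1), 6 to 7 in the bin, 62.5 to 85.7% of window regions with a neighbour within 50 kb, and 21.2 to 27.3% of replicate 3 peaks overlapped by the remaining narrow list. Replicates 1 and 2, named alike, gave 7 regions on their own, 6 of them among the 10 and the other the interval with the input peak. With control intervals kept the window had 11 regions and the bin 10, and 2 bins still had more. With 200 bp around each peak centre the window had 9 regions, which overlapped 8 of the 10, and 18.2% of replicate 3 peaks were overlapped. With replicate 3 cut to the length of replicate 1, chosen after seeing the data, both window and bin had 8 regions, and 66.7% of the remaining replicate 3 peaks were overlapped instead of 30.3%, because the cut keeps only the best-ranked peaks. Within 1 kb of a control peak there were 3 OTX2 peaks instead of 1. Of 44 alternatives in all, 36 left a count within 1.5 times its reported value, or a share or median within its interval or spread. Some of these could hardly have moved, such as the count of 0 in the stated span of Mef2c. The intervals are wide, so that even the fall from 30.3% to 18.2% stayed within its interval. The tally is therefore no measure of robustness.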
